A study of Homo sapiens with 6 samples.

Results

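ARID1A was targeted with separate guide RNAs, sg1 and sg5, in NB-4 cells, an established acute promyelocytic leukemia line, and the transcriptomes of the sg1 and sg5 cells were compared directly. The comparison took the 4 samples titled sg1 or sg5, with 2 replicates each, out of 6 samples in the series. The remaining 2 samples, LacZ, were left out of the contrast, and their values are given for orientation. LacZ cells carried a guide against a bacterial gene and have the genotype label WT, whereas sg1 and sg5 cells share the label ARID1A-deficient. Every group expressed Cas9 with an mCherry reporter and a lentiviral guide vector with a GFP reporter, and received doxycycline at 1 µg/ml over 7 days to switch the guide on. The methods of the study describe sorting of cells positive for both reporters, and say that doxycycline was withdrawn for a time before RNA was taken. The sources used here do not say that a clone was picked, or whether replicates were separate cultures, so p-values cover only the spread between these samples. Neither ARID1A protein nor the edits at the cut sites were measured in these libraries. The study separately reports ARID1A knockout by immunoblot in NB-4 cells with these guides after 7 days of doxycycline.

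ARID1A is the DNA-binding subunit that defines one form of the SWI/SNF complex, which uses ATP to slide or evict nucleosomes and so opens chromatin at enhancers and promoters. Cas9 cuts where a guide pairs with DNA beside a PAM, a short motif that the enzyme itself reads, and repair of the cut leaves insertions or deletions that may shift the reading frame. The mRNA of an edited gene may still be made, and may or may not be degraded. Guides against the same gene are compared in such designs because they share the intended target and differ in the other sites they could pair with.

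Both guide sites lay on the plus strand of chromosome 1 in exon 1 of ARID1A, within coding sequence of the transcripts ARID1A-201 and ARID1A-205. They are shown because they are the only designed difference between the groups compared. Sequences are those of the GENCODE 29 transcripts (GRCh38), with the PAM in capitals.
sg1 site: gaaagcgagggccccgccgtGGG
sg5 site: gcttcgggcaaccctacggcCGG
The sg1 site ran from 26696572 to 26696591 and started at coding base 169. The guide letters were available here only as read from page images. So read, the sg1 guide differed from this site by 1 letter, which may be a misreading, and the sg5 guide by 0. The sg5 site ran from 26696849 to 26696868 and started at coding base 446, so that the sites began 277 bases apart. Cas9 breaks expected before the PAM would fall after coding base 185 for sg1 and after coding base 462 for sg5.

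Similar sequences followed by NGG were counted in 206534 annotated transcripts, and introns and intergenic DNA were not searched. With up to 3 mismatches, 1 place besides the target resembled the sg1 site, and 0 resembled the sg5 site. That place lay in coding sequence of KCNG1, a potassium channel subunit gene that overlaps AL050404.1, on the minus strand of chromosome 20 from 51009737 to 51009756.
KCNG1 site: gacagcgagggcccggccgaGGG
With position 1 at the 5′ end of the ARID1A site, it carried A3C, C15G and T20A. KCNG1 had 98 and 249 counts in sg1, 247 and 84 in sg5, and 277 and 256 in LacZ. The sg1 and sg5 samples overlapped, and the log2 difference was 0.12 with a 95% confidence interval from -1.43 to 1.67, which is wide. At 4 mismatches a further 15 places were found for sg1 and 2 for sg5. Of the 17 genes holding a sequence like the sg1 site, 11 were tested and 0 had an unadjusted p under 0.05, with a smallest p of 0.241 by edgeR. The 2 genes for sg5, BRF1 and KLHDC10, differed between the guides by 0.10 and -0.04 on the log2 scale. TEN1 and RELB, described below, held no such sequence in their transcripts.

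The libraries held between 46131178 and 54843745 estimated counts. The replicates of a guide were less alike than some pairs of libraries of different guides. Over 13133 genes averaging 50 counts or more, the median absolute log2 difference was 0.204 between the sg1 replicates and 0.212 between the sg5 replicates, against 0.117 between the LacZ replicates. It was 0.127 between sg1 replicate 1 and sg5 replicate 2, and 0.122 between sg1 replicate 2 and sg5 replicate 1. For the other pairings of sg1 with sg5 it was 0.185 and 0.218. sg1 replicate 1 and sg5 replicate 2 thus stood apart from the other libraries in the same direction, and the labels give no batch that marks them. ARID1A, TEN1 and RELB are therefore also given as the difference between those 2 libraries and as the difference between the other 2. The markers of promyelocytes that were tested were present throughout. ELANE, another planned marker, was not among the genes tested. MPO, the myeloperoxidase of primary granules, lay between 13431 and 16825 CPM (counts relative to the library's total, scaled by TMM factors), and none of MPO, CEBPE, CTSG, CD33, AZU1 and PRTN3 passed the test between the guides.

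Few genes distinguished sg1 from sg5. Of 18514 genes tested with edgeR's quasi-likelihood F-test, 1 gene (0.00540%) passed a false discovery rate of 0.1, and it was higher in sg1. At an unadjusted p under 0.05 there were 256 genes (1.38%), of which 180 were higher in sg1 (0.972%) and 76 higher in sg5 (0.411%). That is below the share of 0.05 that such a threshold passes where no gene differs. These genes are therefore not a set shown to differ between the guides. Values did not overlap between the guides in 4028 genes (21.8%), of which 2171 were higher in sg1 (11.7%). For exchangeable samples, 2 against 2, a share of 0.333 would be free of overlap in either direction, so 21.8% is no excess. DESeq2 called 5 genes (0.0270%). The number called depended on single libraries, since leaving out sg1 replicate 1 gave 0 genes, sg1 replicate 2 gave 8, sg5 replicate 1 gave 7 and sg5 replicate 2 gave 2. An exact two-sided permutation test of 2 samples against 2 cannot go below a p of 0.333 for any single gene, so every p here borrows spread across genes.

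The differences were small in well-measured genes. Among the 13133 genes that averaged 50 counts or more, 90 in 100 lay between -0.22 and 0.29 on the log2 scale, with a median standard error of 0.161. A difference above 1 in sg1 was seen in 24 of them, and in sg5 in 13. In the plot of all genes the spread widens below 1 CPM, where most of the differences above 2 lay, and there a guide is often at or near 0 counts in both libraries, so that the fitted value depends on the prior count.

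**Figure D1:**
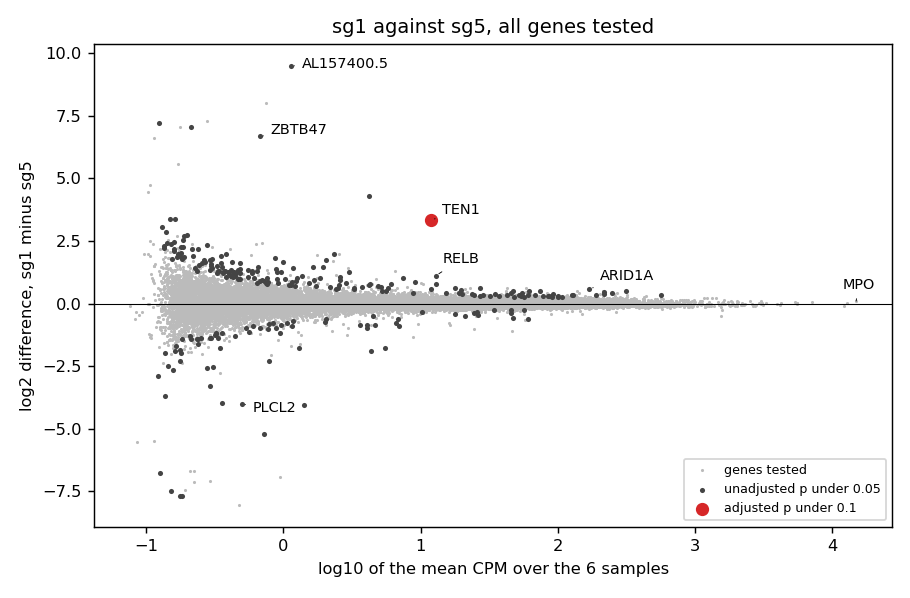
Log2 difference between sg1 and sg5 (vertical axis, positive when higher in sg1) against the log10 of the mean CPM of the 6 samples (horizontal axis) for the 18514 genes tested. Dark points have an unadjusted p under 0.05 by edgeR, and the red point, TEN1, is the 1 gene past a false discovery rate of 0.1.

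ARID1A itself (ENSG00000117713) was measured in every sample first. It lies on chromosome 1 from 26693236 to 26782110, plus strand. Its level was 211 and 191 CPM in sg1 and 124 and 145 CPM in sg5, with 155 and 191 CPM in LacZ. Both sg1 samples lay above both sg5 samples, and LacZ lay between the guides, its higher sample level with the lower sg1 sample. The log2 difference was 0.58, with a 95% confidence interval from 0.25 to 0.91 and an unadjusted p of 0.00317, but its adjusted p was 1.00 by edgeR and 0.756 by DESeq2. Between the 2 libraries that stood apart the difference was 0.54, and between the other 2 it was 0.63. Over all fits in which 1 sg1 or sg5 replicate was left out, it ran from 0.45 to 0.71. The targeted mRNA was thus present in all libraries labelled ARID1A-deficient, and its level does not check the label.

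Transcripts of ARID1A that contain the guide sites were set against those that do not. In TPM (abundance relative to the library, corrected for transcript length), ARID1A-201, the full-length form with both sites in its exon 1, stood at 22.2 and 19.9 in sg1, 12.7 and 13.2 in sg5, and 17.2 and 20.8 in LacZ. Here the sg5 samples were below all others. ARID1A-205, the other form with the sites, stood at 0.0927 and 0.805 TPM in sg1, 0.284 and 0.141 in sg5, and 1.03 and 2.34 in LacZ, so that the guides overlapped and both lay below LacZ. ARID1A-204, which begins further upstream at 26693236 and lacks both sites, stood at 7.93 and 9.62 TPM in sg1, 7.05 and 7.17 in sg5, and 7.45 and 8.47 in LacZ. Its sg5 samples were again lowest, by a smaller margin. ARID1A-202, which starts downstream of both sites, lay between 2.66 and 5.95 TPM in the sg1 and sg5 libraries, which overlapped, above 2.33 and 1.88 in LacZ. Transcripts with the sites took 73.4% and 72.9% of ARID1A counts in sg1, 70.7% and 64.6% in sg5, and 76.8% and 80.2% in LacZ, which was above both guides. Reads common to several transcripts are divided by a model, so levels of single transcripts are less certain than gene sums, and none was tested.

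TEN1 was the gene that fell in sg5 relative to sg1. TEN1 (ENSG00000257949, chromosome 17 from 75979220 to 76000586, plus strand) encodes the smallest subunit of the CST complex, which binds single-stranded DNA at telomeres and helps DNA polymerase alpha fill in the lagging strand. Its level was 18.1 and 19.6 CPM in sg1 and 2.51 and 1.23 CPM in sg5. LacZ, at 13.1 and 17.0 CPM, lay with sg1. All 4 libraries of sg1 and LacZ were far above both sg5 libraries, a 10.1-fold difference between the guides. On the log2 scale it was 3.33 (95% confidence interval from 2.63 to 4.04, adjusted p of 0.0506 by edgeR). The difference was 3.84 between the 2 libraries that stood apart and 2.94 between the other 2. Without sg1 replicate 1 it was 3.38 and the call was lost, with an adjusted p of 0.102. Without each of the other sg1 and sg5 libraries the adjusted p ran from 0.00113 to 0.0765. The call was also lost when only the 4 sg1 and sg5 samples were fitted (0.262), when genes averaging under 50 counts were left out (0.104), when unmatched transcripts were kept (0.611) and under the replicate block (1.00), all by edgeR.

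The difference sat in a single TEN1 transcript. TEN1-201, with 4 exons and the whole span of the gene, stood at 24.2 and 26.5 TPM in sg1, 18.0 and 23.7 in LacZ, and only 1.68 and 0.318 in sg5. TEN1-205 stood at 1.24 and 3.44 TPM in sg1 and 1.82 and 2.41 in sg5, so that the guides overlapped. TEN1-CDK3-201, a read-through transcript that begins 11 bases downstream of TEN1-201 and continues into the neighbouring kinase gene CDK3, stood at 3.46 and 4.75 TPM in sg1 and 4.58 and 3.95 in sg5. It too overlapped between the guides. In sg5, TEN1-201 held 44.4% and 17.9% of the TEN1 counts, against 91.0% and 89.9% in sg1. Summed over the overlapping genes of the locus, the difference was 0.77 with an unadjusted p of 0.00096, and its adjusted p was 1.00 by edgeR.

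**Figure D2:**
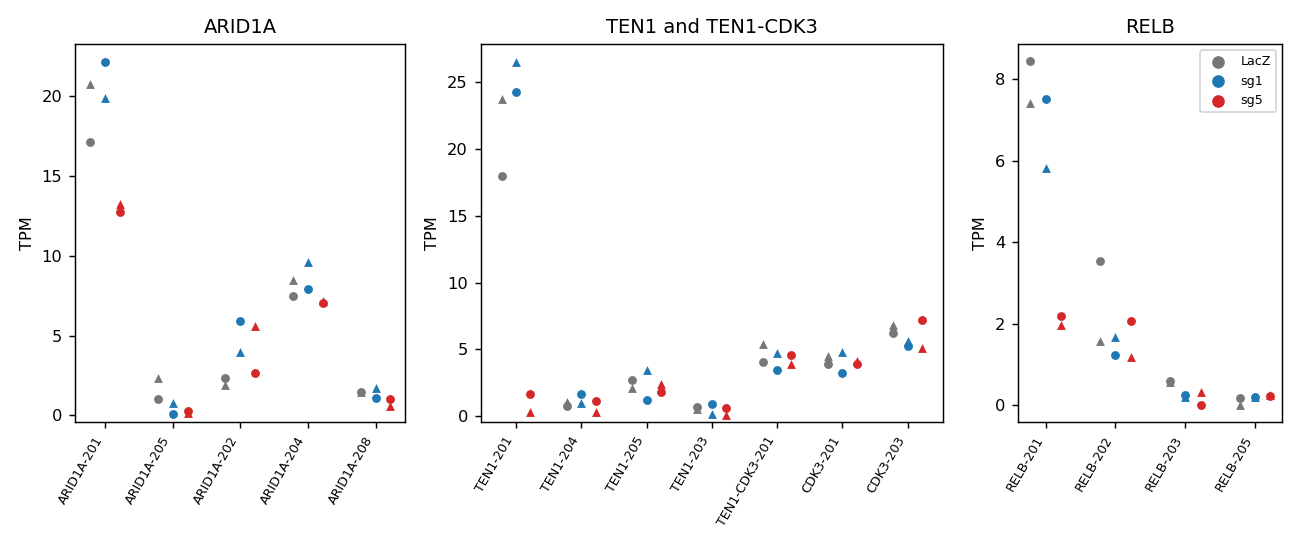
TPM of single transcripts (vertical axis) of ARID1A, of TEN1 with its neighbour CDK3, and of RELB, in LacZ (grey), sg1 (blue) and sg5 (red), with circles for replicate 1 and triangles for replicate 2. TEN1-201 and RELB-201 stand apart in sg5, at no more than 1.68 and 2.21 TPM, while TEN1-CDK3-201 overlaps between the guides.

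Genes near TEN1 did not share the difference. On the log2 scale TEN1-CDK3 differed by -0.06, the kinase gene CDK3 by -0.04, the ciliary gene FBF1 by 0.12 and the cornified envelope gene EVPL by 0.21. Over 65 tested genes lying at least partly within 1 Mb the median was 0.05 and 0 had an unadjusted p under 0.05. The next value in size among those with a mean of at least 50 counts was 1.28 for ZACN, where sg5 replicate 1 had 0.405 CPM and sg5 replicate 2 had 6.86 CPM, and its p was 0.341. The other CST subunits also lay near 0, STN1 at -0.12 (95% confidence interval from -0.52 to 0.28) and CTC1 at 0.04 (from -0.34 to 0.42).

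Of 20 genes of telomere end protection and CST, 1 passed the test, beside 0.00540% of all genes, and 1 more had an unadjusted p under 0.05, beside 1.38%. The gene that passed was TEN1, which was known to differ when the list was chosen, so the count is not independent of it. The median over the list was -0.03, against -0.002 over all genes tested. TERT, the catalytic subunit of telomerase, stood at 45.3 and 55.2 CPM in sg1, 37.2 and 42.4 in sg5, and 34.7 and 40.4 in LacZ. The guides did not overlap, but the log2 difference of 0.34 had an adjusted p of 1.00 by edgeR and dropped to 0.17 once GC content was corrected for and to 0.18 without sg1 replicate 2. Shelterin genes lay close together, POT1 at -0.17, TERF1 at -0.05, TERF2 at 0.00 and TINF2 at 0.07, and none of these passed.

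RELB (ENSG00000104856, chromosome 19 from 45001430 to 45038198, plus strand) had the next smallest p among genes with at least 5 CPM. It encodes an NF-kappaB subunit that pairs with the processed product of NFKB2 in the non-canonical pathway. RELB stood at 15.5 and 12.9 CPM in sg1, 7.35 and 5.83 in sg5, and 20.2 and 15.6 in LacZ. The sg5 libraries were below the other 4, and sg1 lay at or below LacZ. The guides differed 2.16-fold, or by 1.11 on the log2 scale (95% confidence interval from 0.65 to 1.57). The test did not call it by edgeR, with an adjusted p of 1.00, whereas DESeq2 did, with an adjusted p of 0.00379. Between the 2 libraries that stood apart the difference was 1.41, and between the other 2 it was 0.81. RELB transcripts are rich in GC (65.4% in the longest), and corrected for GC content the difference was 0.95.

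RELB resembled TEN1 in that one transcript carried the difference. RELB-201 stood at 7.51 and 5.83 TPM in sg1, 2.21 and 1.97 in sg5, and 8.44 and 7.43 in LacZ. RELB-202, which starts 31 bases further downstream and has 11 exons in place of 12, stood at 1.24 and 1.68 TPM in sg1 and 2.06 and 1.20 in sg5. The shorter form therefore overlapped between the guides. Within 1 Mb of RELB, 67 tested genes had a median of 0.08 and 0 had an unadjusted p under 0.05. The 44 of them with a mean of at least 50 counts lay between -0.42 and 0.45. BCL3, a nuclear IkappaB protein that works with NF-kappaB subunits and lies on the same chromosome arm, was among them at 0.37.

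**Figure D3:**
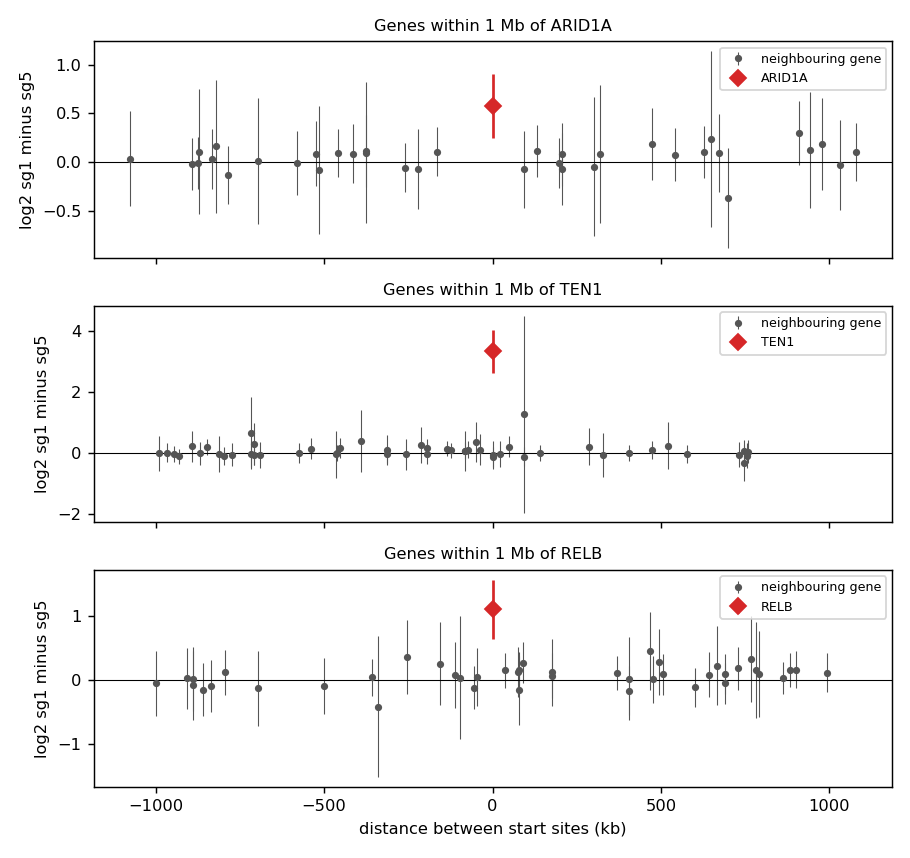
Log2 difference between sg1 and sg5 with its 95% confidence interval (vertical axes) against the distance between start sites in kb (horizontal axis) for genes within 1 Mb of ARID1A, TEN1 and RELB with a mean of at least 50 counts. The central genes (red, at 0.58, 3.33 and 1.11) lie above their neighbours (grey), whose medians are between 0.01 and 0.08.

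The NF-kappaB genes were then examined as a list. Of 25 subunits and regulators tested, 0 passed the test and 2 had an unadjusted p under 0.05, both higher in sg1, beside 0.972% of all genes. One of them was RELB, which was known to differ when the list was chosen. In 7 genes the guides did not overlap with sg1 higher, beside 11.7% of all genes, and in TRAF6 with sg5 higher. MAP3K14, the kinase that triggers processing of the NFKB2 protein, was the other gene with a small p. It stood at 3.01 and 2.84 CPM in sg1, 2.09 and 0.811 in sg5, and 1.12 and 1.29 in LacZ, and its log2 difference of 1.01 had an adjusted p of 1.00 by edgeR. It was 1.83 without sg5 replicate 1 and 0.49 without sg5 replicate 2. Unlike RELB, MAP3K14 had LacZ nearer to sg5. The remaining DNA-binding subunits lay closer to 0, RELA at 0.01, NFKB1 at 0.00, REL at -0.04 and NFKB2 at 0.22. The inhibitor gene NFKBIE was at 0.29, the scaffold IKBKG of the IkappaB kinase complex at 0.42, and the ligase TRAF6 at -0.24. The median of the list was 0.09, and it was 0.02 without sg1 replicate 1 and 0.14 without sg1 replicate 2. Of 21 tested NF-kappaB target genes, 0 had an unadjusted p under 0.05, and their median was 0.07. Among these, JUNB was at 0.23, IL1B at 0.38 and CCR7 at -1.01.

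The 10 protein-coding genes with the smallest p in each direction, among those with a mean of at least 50 counts and no overlap, were inspected next. Higher in sg1 were TEN1, RELB, ZNF398, ARID1A, RNF213, TMEM225B, AC048338.1, PPP1R12B, GOLGA8G and AMIGO3. Higher in sg5 were ICE2, LUZP1, USP28, INO80B-WBP1, TGIF2-RAB5IF, CORO7-PAM16, MYH3, KIDINS220, AC021097.2 and C1QTNF3-AMACR. Apart from TEN1, none of these passed the test, each with an adjusted p of 1.00 by edgeR. LacZ lay nearer to sg1 in 7 of the 10 genes higher in sg1, and in 7 of the 10 genes higher in sg5. At the edge of this choice, AMIGO3 had a p of 0.0106 and the next gene, IL32, 0.0118, while C1QTNF3-AMACR and the next gene, FAM120B, both had 0.0224.

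ZNF398, a zinc finger transcription factor gene with a KRAB domain, stood at 7.61 and 8.17 CPM in sg1, 4.86 and 4.23 in sg5, and 5.70 and 5.83 in LacZ. Its LacZ values were between the guides, which differed by 0.80 on the log2 scale, or by 0.54 with an offset for transcript length. RNF213, a large E3 ubiquitin ligase, stood at 56.6 and 49.7 CPM in sg1, 41.3 and 34.0 in sg5, and 49.5 and 50.3 in LacZ, a difference of 0.50, or 0.33 with an offset for transcript length. Between the 2 libraries that stood apart it was 0.74, and between the other 2 it was 0.27. sg1 and LacZ were close there, and sg5 was below both. PPP1R12B, a regulatory subunit of myosin phosphatase, stood at 13.8 and 14.3 CPM in sg1, 9.82 and 8.84 in sg5, and 10.8 and 13.3 in LacZ, a difference of 0.59. Summed with the genes that overlap it, the difference was 0.58, and with the length offset it was 0.84.

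ICE2, a subunit of the little elongation complex that serves small nuclear RNA genes, had the smallest p in the other direction. It stood at 40.4 and 42.6 CPM in sg1, 60.3 and 62.9 in sg5, and 42.8 and 33.1 in LacZ. The sg5 libraries were above all others, with a log2 difference of -0.57, but with an offset for the average transcript length of each gene it was -0.15 (unadjusted p of 0.272). LUZP1, a protein of actin filaments and centrosomes, stood at 5.73 and 4.73 CPM in sg1, 8.80 and 8.98 in sg5, and 5.68 and 6.05 in LacZ, and USP28, a deubiquitinase that acts on MYC, at 22.5 and 22.3 in sg1, 30.4 and 31.8 in sg5, and 26.6 and 24.8 in LacZ. Their differences were -0.76 and -0.47, that of LUZP1 was -0.32 with the length offset, and LacZ lay with sg1 for LUZP1 and between the guides for USP28. MYH3, a skeletal myosin heavy chain of embryonic muscle, stood at 2.43 and 0.675 CPM in sg1, 5.03 and 6.76 in sg5, and 3.97 and 7.28 in LacZ. In this gene sg1, not sg5, stood apart from LacZ, but its log2 difference of -1.91 was -0.43 with the length offset, and -3.14 without sg1 replicate 1. KIDINS220, a scaffold of neurotrophin receptors, differed by -0.86, which was -0.49 with the length offset, -1.40 without sg1 replicate 1 and -0.48 without sg1 replicate 2.

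**Figure D4:**
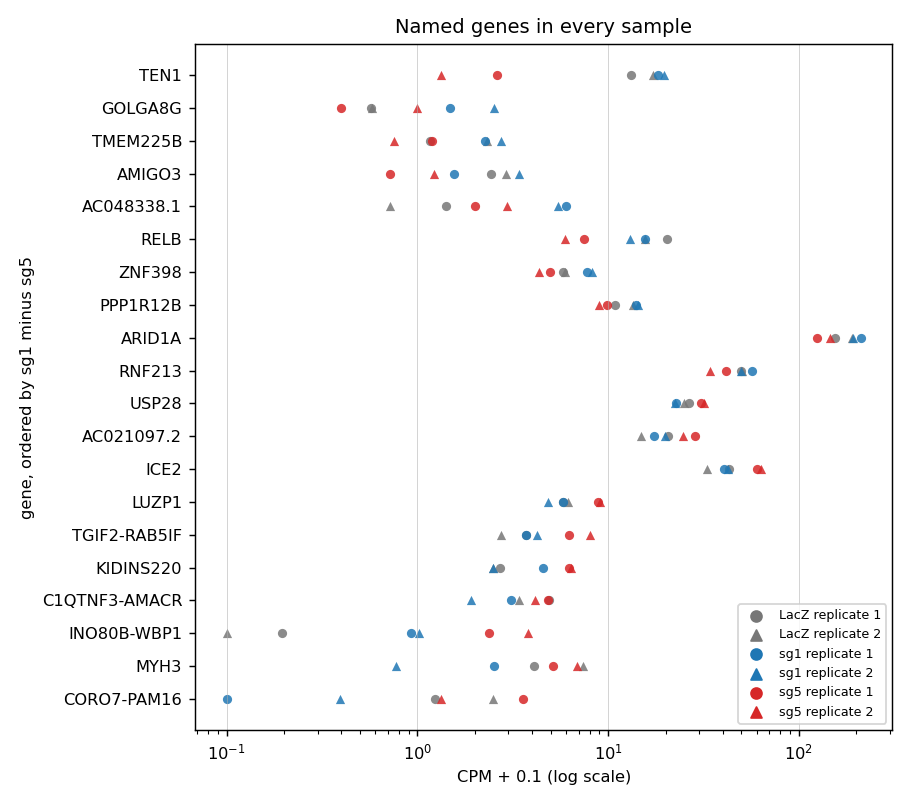
CPM plus 0.1 on a log scale (horizontal axis) of ARID1A, TEN1, RELB and the other genes with the smallest p in each direction (vertical axis, ordered by the log2 difference), with LacZ in grey, sg1 in blue and sg5 in red, and circles and triangles for replicates 1 and 2. TEN1 shows the widest gap with expression above 10 CPM in sg1, at 18.1 and 19.6 CPM against 2.51 and 1.23 in sg5.

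Several of these names were read-through or overlapping gene models whose reads are shared with other genes. INO80B-WBP1 differed by -1.77 on the log2 scale and its summed locus by -0.01. For CORO7-PAM16 the values were -4.05 and 0.12, for TGIF2-RAB5IF -0.86 and 0.02, and for C1QTNF3-AMACR -0.86 and -0.01. For AC048338.1 they were 1.25 and -0.08, for TMEM225B 1.47 and 0.02, and for AC021097.2 -0.51 and -0.06. In these 7 genes the difference was nearly absent from the sum. A sum can also dilute a difference in a single member, so it does not decide whether that member differed. AMIGO3 kept 0.42 of 1.45, and was at 0.36 between the 2 libraries that stood apart and 2.36 between the other 2. Without sg1 replicate 2 it was 0.74. GOLGA8G belongs to a family of near-identical copies, so its separate value of 1.66 is uncertain, and it was 1.06 without sg5 replicate 1 and 2.66 without sg5 replicate 2. CORO7-PAM16 had 0 and 13 counts in sg1, so that its value depends on the prior count, and C1QTNF3-AMACR was at -1.30 without sg1 replicate 1 and -0.55 without sg1 replicate 2.

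DESeq2 called 4 genes besides TEN1, which were chosen for mention after their values were seen. RELB was one of them. PLCL2, a phospholipase C-like protein without catalytic activity, had 5 and 3 counts in sg1, 83 and 53 in sg5, and 0 in both LacZ libraries. Its log2 difference was -4.03 in edgeR, with an adjusted p of 0.556. ZBTB47, a zinc finger gene, had 93 and 34 counts in sg1, 1 and 0 in sg5, and 11 and 60 in LacZ. AL157400.5, which overlaps PANK1, had 123 and 54 counts in sg1, 64 and 97 in LacZ, and 0 in both sg5 libraries, which makes it at least 59.3-fold higher in sg1 if sg5 is set at a floor of 3 counts over the group. Summed over its locus, the difference was -0.10. The floor covers counting error only.

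Where LacZ stood was summarised for genes with a small unadjusted p between the guides. Among the 256 genes with an unadjusted p under 0.05, LacZ was nearer to sg1 in 183 (71.5%), against 60.6% of all genes tested. sg1 and sg5 lay on opposite sides of LacZ, with no overlap among the 3 groups, in 47 of the 256 (18.4%) and in 182 of all genes (0.983%). ARID1A, TEN1, ZNF398, PPP1R12B and USP28 were among them. Being on opposite sides makes a gene more likely to have a small p, so these shares are a description.

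SWI/SNF subunits, the target included, had a median near 0. Of 27 subunit genes tested, 0 passed the test and 2 had an unadjusted p under 0.05, beside 1.38% of all genes. These were ARID1A, the target itself, and BICRA. The median was -0.02, and single genes ran from -0.57 to 0.58, the latter being ARID1A. The guides did not overlap in 3 genes with sg1 higher and in 4 with sg5 higher. Together these were 25.9% of the list, beside 21.8% of all genes. ARID1B, the paralog that takes the place of ARID1A in the complex, stood at 87.6 and 78.2 CPM in sg1, 76.0 and 73.1 in sg5, and 68.0 and 72.7 in LacZ. The sg1 libraries were higher, by 0.15 on the log2 scale (95% confidence interval from -0.10 to 0.41). The ATPase gene SMARCA4 was at 0.11 and the core subunit gene SMARCB1 at 0.08. BICRA, a subunit of the non-canonical complex, was at 0.40, at 0.19 after correction for GC content, at 0.17 with the length offset and at 0.26 without sg5 replicate 1.

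Other programs of the line were compared by lists, and in none of them did a gene pass the test. Of 14 primary granule genes tested, PRSS57 alone had an unadjusted p under 0.05, beside 1.38% of all genes. PRSS57 was at 0.28, which was 0.079 after correction for GC content, and the median of the list was 0.05. The 18 neutrophil maturation genes tested had a median of 0.12, which turned to -0.11 without sg5 replicate 2 and -0.02 without sg1 replicate 1. CEBPD, a transcription factor gene of late granulocytes, was at 0.37 and the integrin gene ITGAM at 0.05. CEBPD was at 0.15 after correction for GC content, 0.57 without sg5 replicate 1 and 0.18 without sg5 replicate 2. In the 15 retinoid response genes tested, sg1 was higher without overlap in 6 genes, beside 11.7% of all genes, among them CYP26B1 at 0.90 (0.55 without sg1 replicate 2), ASB2 at 0.23 and PML at 0.09. Their median was 0.09, and 0.01 after correction for GC content.

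Interferon and DNA damage genes were centred on 0. The medians were 0.02 over 34 interferon-stimulated genes and -0.002 over 23 p53 target and DNA damage genes, and 0 genes of either list had an unadjusted p under 0.05. TP53I3, a p53 target, was nearest, with 0.791 and 0.518 CPM in sg1, 0.341 and 0.336 in sg5, and a p of 0.0594. Over 10 MHC class II genes the median was -0.01 and over 15 eosinophil, basophil and mast cell genes 0.05. HLA-DPB1 at -1.02 and KIT at 2.05 were the extremes of those lists, with p-values of 0.195 and 0.0992 by edgeR. KIT had at most 0.304 CPM in any library.

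Proliferation genes leaned towards sg5 by amounts below the spread between replicates. S phase genes had a median of -0.09 over 42 genes, with 3 above 0. G2/M genes had a median of -0.06 over 53 genes, with 10 above 0, beside 9158 of all 18514 genes tested. The standard deviation of the list score between replicates was 0.155 and 0.217. Without sg5 replicate 2 the medians turned to 0.05 and 0.16. The median GC content was 43.9% for the S phase list and 43.7% for the G2/M list, beside 48.7% for all genes tested. In the GC group from 41.0% to 45.9%, described below, the median log2 difference was -0.05. After correction for GC content the list medians were -0.07 for S phase and -0.04 for G2/M. The counts above 0 were not compared at equal GC content, and the part of GC content in the lean was not tested. Cytosolic ribosomal protein genes had a median of -0.05 over 83 genes, and the guides did not overlap in 19.3% of them, beside 21.8% of all genes. Of these, 14 were higher in sg5 and 2 in sg1, where over all genes 1857 were higher in sg5 and 2171 in sg1. Oxidative phosphorylation genes had a median of -0.03 over 83 genes. ATP5F1D, an ATP synthase subunit, was the 1 gene with an unadjusted p under 0.05, a share near the 1.38% of all genes. ATP5F1D was at 0.34, at 0.20 after correction for GC content and at 0.19 without sg1 replicate 1.

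Markers of other cell types were also summed. Lymphoid markers came to between 135 and 164 CPM over sg1 and sg5, and monocyte and dendritic cell markers to between 187 and 245. Erythroid and megakaryocyte markers came to 659 and 461 CPM in sg1 and 434 and 695 CPM in sg5, with the higher sums in the 2 libraries that stood apart. Of 21 lymphoid markers 2 were at 0 in all samples, of 21 monocyte and dendritic cell markers 2, of 25 erythroid and megakaryocyte markers 9, and of 20 eosinophil, basophil and mast cell markers 1. GNLY, a cytotoxic granule gene, was the 1 lymphoid marker of 12 tested with an unadjusted p under 0.05, beside 1.38% of all genes. It had 30 and 20 counts in sg1 and 12 in each sg5 library. In bulk RNA, fewer cells of a type and less RNA per cell cannot be told apart.

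**Figure D5:**
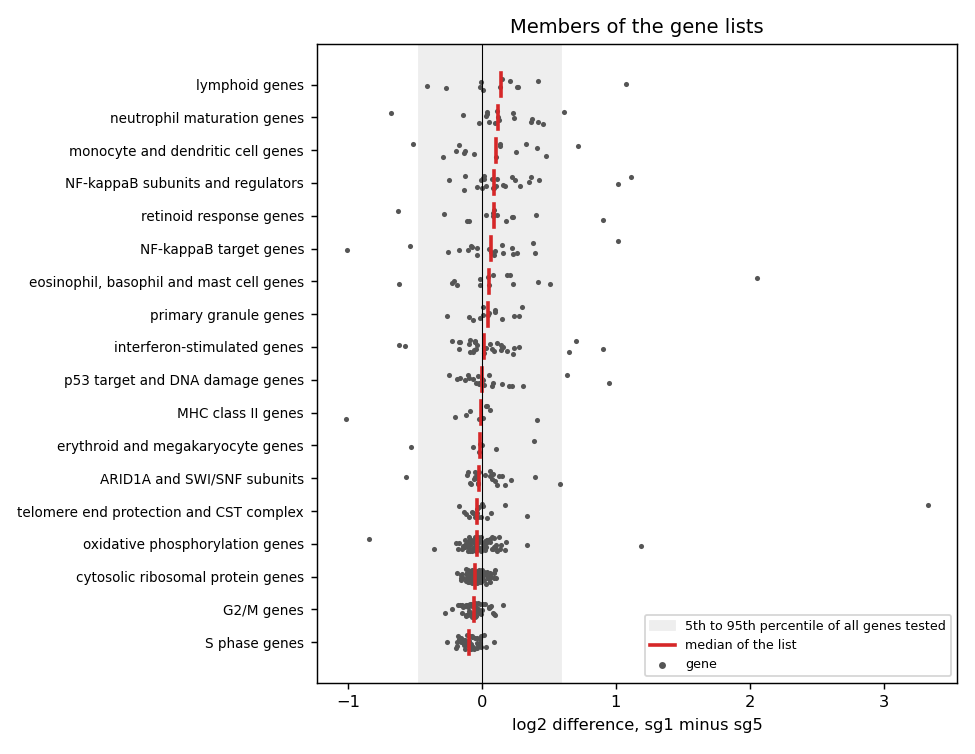
Log2 difference between sg1 and sg5 (horizontal axis, positive when higher in sg1) of the tested members of each gene list (vertical axis, ordered by median). Each point is a gene, red bars are medians, and the grey band spans the 5th to the 95th percentile of all 18514 genes tested, from -0.47 to 0.59. Medians lie between -0.09 and 0.14.

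Small unadjusted p-values were found on most chromosomes, but not evenly. The median per chromosome ran from -0.05 on chromosome 13 to 0.07 on chromosome 19, where RELB lies. Medians also followed the GC content of genes, as described below, and chromosomes were not compared at equal GC content. Genes with an unadjusted p under 0.05 numbered 0 of 302 tested on chromosome 13. They numbered 29 of 1350 on chromosome 19 and 16 of 495 on chromosome 22, beside 1.38% of all genes. Over the 47 tested genes lying at least partly within 1 Mb of ARID1A the median was 0.08 and 0 had an unadjusted p under 0.05. PIGV, 94.2 kb downstream, was at -0.07.

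The differences followed the GC content of the genes. Genes averaging 50 counts or more were split into 5 equal groups by the GC content of their longest transcript, and from the lowest to the highest group the median log2 difference was -0.07, -0.05, -0.02, 0.03 and 0.11. The order was the same between the 2 libraries that stood apart, from -0.08 to 0.13, and between the other 2, from -0.06 to 0.09. Between the replicates of sg1 the medians of the 5 groups ran only from -0.01 to 0.02, and between those of sg5 from -0.03 to 0.04. Split by transcript length, they ran from -0.01 to 0.003. Genes with an unadjusted p under 0.05 had a median GC content of 56.8% when higher in sg1 and 49.3% when higher in sg5. Over all genes tested the medians were 52.96% when higher in sg1 and 45.52% when higher in sg5. A similar gap was thus present without selecting genes by p, and the selected genes were richer in GC in both directions. With GC content corrected for, TEN1 was at 3.22 (adjusted p of 0.0829 by edgeR), ARID1A at 0.52 and RELB at 0.95, and 217 genes had an unadjusted p under 0.05. The part of GC content in the remaining differences was not tested.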

How the data were processed

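RNA of 6 NB-4 samples was sequenced from TruSeq libraries. The authors deposited, per transcript, estimated counts and TPM (scaled by effective transcript length). The labels name kallisto, DESeq2 and hg19 without versions, and the human transcript set is not given in the sources used here. Of 196354 transcripts, 181857 (92.6%) matched GENCODE 29 (GRCh38) by identifier and carried 95.4% to 95.5% of counts. They were summed to 52992 genes and rounded. Unmatched transcripts were left out. Coordinates are 1-based.

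edgeR 4.0.16 (R 4.3.3; TMM, filterByExpr with a minimum count of 10, robust quasi-likelihood F-test) was fitted on all 6 samples by group alone, with LacZ sharing the estimate of spread, and sg1 was contrasted with sg5 at a Benjamini-Hochberg FDR of 0.1 over 18514 genes. Standard errors came from the F statistic. DESeq2 1.42.0 was an alternative. The functions were tested on simulated data. Named genes were ARID1A, TEN1, RELB, called genes, the 10 protein-coding genes with the smallest p in each direction (mean of at least 50 counts, no overlap), and members of the lists with an unadjusted p under 0.05. S phase and G2/M genes came from Seurat 5.3.0, and the other lists were hand-written or set by symbol. The samples compared, the examples and the lists were chosen with earlier results of these data known. Replicate numbers did not pair the samples. A search of the genome for guide-like sites was planned, and only annotated transcripts were searched. GC content was that of the longest transcript, known for 18513 genes, and its correction was chosen after the data were seen.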

Additional observations from a re-analysis of the deposited data

Results flagged for a closer look

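In 5 named genes every sg1 sample lay on one side of both LacZ samples and every sg5 sample on the other. The log2 differences, sg1 minus sg5, were 3.33 for TEN1, 0.80 for ZNF398, 0.58 for ARID1A, -0.47 for USP28 and 0.59 for PPP1R12B. Only TEN1 passed the test of the difference between the guides itself (edgeR, adjusted p of 0.0506), and the other 4 had adjusted p-values of 1.00. For ARID1A the margin was slight, with the lower sg1 sample at 191.1 CPM and the higher LacZ sample at 190.7 CPM. Across all genes tested, 182 (0.983%) had this arrangement. Named genes were mostly chosen for a small p, and many for no overlap between the guides, so that share is no measure for them.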

How the results depend on the processing

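The number of genes called was 1 as reported and stayed 1 with DESeq2 size factors, without robust estimation, without either LacZ replicate and with the GC offset. It was 5 with DESeq2, 86 with no low-count filter (75 of which also passed the filter), 2 with the transcript length offset, and 0 for genes averaging 50 counts or more, only sg1 and sg5 samples, an FDR of 0.05, unmatched transcripts kept, or overlapping genes summed. Beside these counts of 0 by edgeR, genes with an unadjusted p under 0.05 numbered 113, 166, 256, 453 and 216. Leaving out 1 library gave from 0 to 8, with 1 sample left in a guide, assumed to vary like the other groups. Same-numbered replicates of sg1 and sg5 deviated with a correlation of -0.21 across genes (0.07 and 0.01 for LacZ with sg1 and sg5), so the numbers share only a name. With the replicate block 0 genes passed and 206 had an unadjusted p under 0.05, and with a crossed replicate block, an alternative added on seeing the data, 2 passed and 327 did.

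TEN1 kept its direction in every fit and lost its call for genes averaging 50 counts or more (3.33, adjusted p of 0.104), only sg1 and sg5 samples (3.33, 0.262), the replicate block (3.35, 1.00), unmatched transcripts kept (3.32, 0.611), overlapping genes summed (0.77, 1.00) and sg1 replicate 1 left out (3.38, 0.102), and at an FDR of 0.05 (3.33, 0.0506). It ran from 2.91 to 3.92 when a replicate was left out. RELB passed with DESeq2 (1.10) and with no low-count filter (1.11), and ARID1A with no low-count filter (0.58). Over the other named genes and alternatives, 477 values kept their direction and their side of the threshold, 18 gained a call, and 4 changed direction. Summing overlapping genes turned the direction of AL157400.5 (-0.10), AC048338.1 (-0.076), TGIF2-RAB5IF (0.021) and CORO7-PAM16 (0.12), where reads are shared by construction. The cause of these changes, and of the others, was not tested. With up to 4 mismatches, 17 places resembled the sg1 site and 3 the sg5 site, the targets included.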
